A study of Mus musculus with 12 samples.

Results

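Ehf, Elf3, Grhl2, Klf5, Sox9, Sox4, Onecut1 and Onecut2 are 8 transcription factors of bile duct cells, simple epithelia and liver progenitors. They were taken by name from a table of 24421 genes measured by RNA sequencing in mouse liver, and all 8 were found in it. Libraries were made with a stranded mRNA kit from liver tissue without tumour of male mice killed at 4 months of age. There were 4 groups of 3 mice each, namely LiKM mice fed an ACR diet, LiKM mice fed a normal diet, LiK mice fed an ACR diet and LiK mice fed a normal diet. ACR, a synthetic acyclic retinoid, made up 0.06% of that diet from 5 weeks of age. The labels give the strains by name only. By general knowledge of this work the hepatocytes of LiKM mice are understood to be without Mdm2, which marks p53 for degradation. The titles give a strain, a diet and a number. Each replicate has an identifier of its own and was taken as a separate mouse, so that the errors below include the spread between animals.

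Bile ducts are lined by cholangiocytes, epithelial cells that arise in the fetal liver from the same progenitors as hepatocytes. Sox9 marks the first duct cells and, with Sox4, is needed for normal duct formation in the mouse, while Onecut1 (also called HNF6) and Onecut2 act earlier, on the choice between the hepatocyte and the biliary fate, and Onecut1 remains active in adult hepatocytes. Ehf and Elf3 are epithelium-specific members of the ETS family, Grhl2 is a grainyhead factor that maintains genes of epithelial junctions, and Klf5 is a zinc finger factor of gut and other epithelia.

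Promoter sequences were available for 3 of the 8 genes, from RefSeq on GRCm38.p6, and are shown because 2 of these genes, Elf3 and Sox4, rose together in LiKM livers on each diet whereas Onecut1 did not pass the test. Each runs 5′ to 3′ on the strand of the gene, from 250 bases before its start to 50 bases after it. Capitals mark matches on either strand to the short motifs searched. The Elf3 window is chr1:135258423-135258722 on the minus strand, the Sox4 window chr13:28953650-28953949 on the minus strand, and the Onecut1 window chr9:74861671-74861970 on the plus strand.
Elf3: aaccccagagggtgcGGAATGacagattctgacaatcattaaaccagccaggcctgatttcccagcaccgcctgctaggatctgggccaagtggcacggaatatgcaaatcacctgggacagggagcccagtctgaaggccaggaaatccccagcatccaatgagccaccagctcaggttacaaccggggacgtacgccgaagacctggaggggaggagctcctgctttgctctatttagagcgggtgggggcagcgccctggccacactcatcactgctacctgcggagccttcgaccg
Sox4: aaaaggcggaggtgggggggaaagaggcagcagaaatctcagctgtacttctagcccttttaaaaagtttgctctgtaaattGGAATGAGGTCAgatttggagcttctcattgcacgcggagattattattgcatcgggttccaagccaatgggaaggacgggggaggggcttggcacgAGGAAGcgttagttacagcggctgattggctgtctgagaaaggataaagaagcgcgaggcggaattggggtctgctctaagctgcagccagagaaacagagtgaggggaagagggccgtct
Onecut1: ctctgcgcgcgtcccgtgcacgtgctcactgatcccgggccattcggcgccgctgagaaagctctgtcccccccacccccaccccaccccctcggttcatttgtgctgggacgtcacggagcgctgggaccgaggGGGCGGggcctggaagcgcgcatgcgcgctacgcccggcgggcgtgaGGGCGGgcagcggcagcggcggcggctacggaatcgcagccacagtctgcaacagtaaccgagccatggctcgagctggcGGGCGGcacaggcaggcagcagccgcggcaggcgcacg

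The TEAD motif GGAATG, through which YAP acts with TEAD factors, stood at position -235 of the Elf3 window and at position -168 of the Sox4 window, counted from the gene's start. It was present in 14.7% of the 32851 promoters of the same table. In Sox4 it was directly followed by AGGTCA at -162, the core of retinoid receptor sites, which 16.3% of promoters held. Sox4 also held the ETS motif AGGAAG at -71, present in 35.4% of promoters. The KLF motif GGGCGG, present in 35.7% of promoters, occurred 3 times in the Onecut1 window, at -115, -68 and 13. The grainyhead motif AACCGGTT (0.146% of promoters), the Onecut motif ATCAAT (7.54%), the SOX motif ACAATG (12.6%) and a p53 element (8.36%) matched none of these 3 windows. A match of this length is a description of the letters only.

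Library totals ran from 10124813 to 18647156 counts. Levels are given as CPM, counts scaled to the library's total size with TMM factors, and group levels as mean ± SD with n = 3. Fold changes are on the log2 scale, from edgeR's quasi-likelihood test over 13880 genes. Their standard error (SE) was derived as the absolute log2 fold change divided by the square root of the test's F statistic. A gene is said to have risen, fallen or changed where its Benjamini-Hochberg adjusted p was under 0.05. Of the 8 genes 7 had enough counts for that test. Klf5 did not and is described by its counts. Mdm2, counted over the whole gene and therefore no check of a deletion within it, ran from 31.8 to 67.2 CPM in LiKM mice on ACR, 29.0 to 35.0 CPM in LiKM mice on the normal diet, 21.6 to 23.5 CPM in LiK mice on ACR and 23.4 to 25.8 CPM in LiK mice on the normal diet, so it was not lower in the libraries labelled LiKM. Because these are whole livers, more cells of a type and more RNA of a gene per cell cannot be told apart in any result below. Some libraries stand apart in ways that touch these genes. LiK ACR 1 had more of the duct markers Epcam (2.88 CPM, against 0.502 to 0.999 CPM in the other LiK libraries) and Spp1 (172 CPM, against 28.6 to 46.4 CPM). LiK ACR 3 held 18 CPM of pancreatic acinar markers in sum, against 0.498 to 1.53 CPM in all other libraries.

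**Figure D1:**
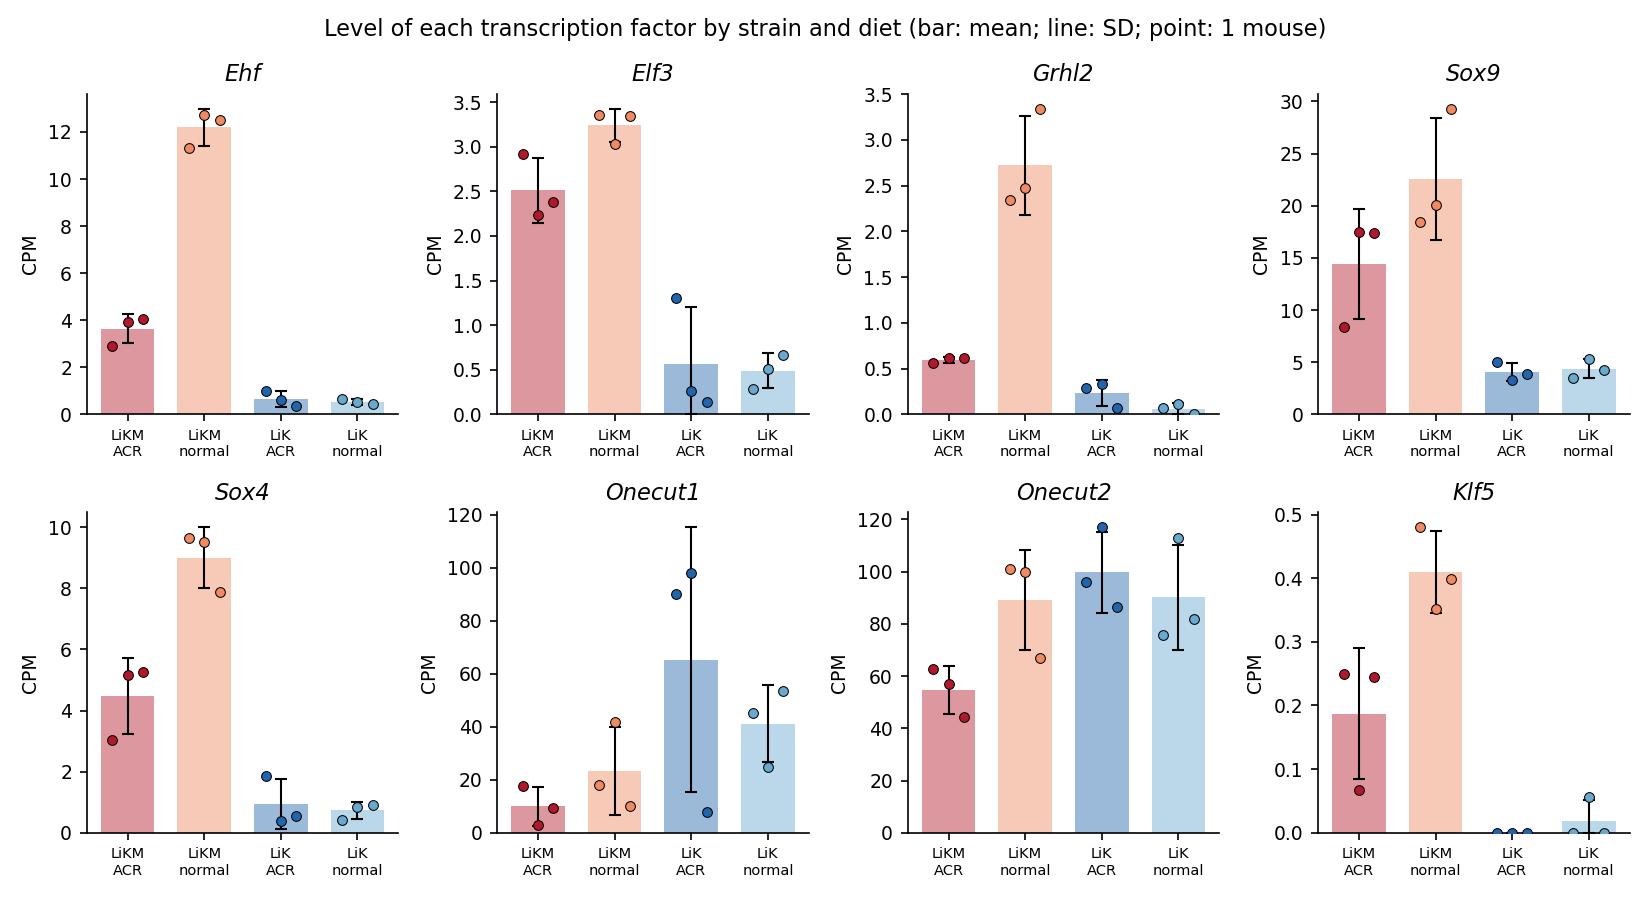
CPM of each of the 8 transcription factors (y axis, a scale of its own in each panel) in the 4 groups (x axis). Points are mice, bars are means and lines are SDs, stopped at 0. Ehf, Elf3, Grhl2, Sox9, Sox4 and Klf5 were highest in LiKM mice on the normal diet, whereas Onecut1 scattered from 7.89 to 98.0 CPM among LiK mice on ACR alone.

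On the normal diet 5 of the 7 genes tested rose in LiKM livers and 0 fell, against 13.2% of all 13880 genes that rose and 8.61% that fell. These were Ehf, Grhl2, Elf3, Sox4 and Sox9. All 3 LiKM libraries lay above all 3 LiK libraries for each of them, as for 20.7% of all genes tested. The median log2 change of the 7 was 2.73, against 0.02 for all genes, whose middle 90% ran from -0.65 to 1.93. The genes were chosen with earlier results of these data known. These counts and the ranks below are therefore not those of an unselected set.

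Ehf had 11.3, 12.7 and 12.5 CPM in LiKM mice on the normal diet, against 0.634, 0.509 and 0.419 CPM in LiK mice on that diet. All LiKM mice were far above all LiK mice, and the 3 LiKM mice differed from each other by a factor of only 1.13. The LiKM level was 22.9 times the LiK level (log2 4.52, SE 0.30, edgeR adjusted p = 3.01e-05), and by unadjusted p Ehf ranked number 1 of the 13880 genes. Elf3, the closest relative of Ehf among the 8 genes, had 3.36, 3.03 and 3.34 CPM in LiKM mice against 0.282, 0.509 and 0.67 CPM in LiK mice. It rose 6.63-fold (log2 2.73, SE 0.55, edgeR adjusted p = 0.00603), a call that ended without the 3 mice whose identifiers start with MP (log2 3.48, edgeR adjusted p = 0.0663), which leaves LiK mice on the normal diet with 1 library.

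Grhl2 was nearly absent from LiK livers. It had 2.34, 2.47 and 3.34 CPM in LiKM mice and 0.0704, 0.113 and 0 CPM in LiK mice on the normal diet. Its rise was 35.6-fold in the fit (log2 5.16, SE 0.55, edgeR adjusted p = 0.000231), and the log2 value was 5.86 without LiK normal 2. Since the LiK value rests on 3 reads, against 116 reads in LiKM mice, the fold depends on the small count the fit adds. The plain ratio of the summed counts was 39.0 with a 95% interval of 13.0 to 192 that covers counting error only.

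Klf5 followed the same order at a lower level. LiKM mice on the normal diet had 8, 5 and 5 reads of it and LiK mice 0, 1 and 0 reads, so the groups did not overlap. The ratio was 18.2 with a 95% counting interval of 2.87 to 756. On ACR the LiKM mice had 4, 1 and 4 reads and all 3 LiK mice 0 reads. With 3 counts put in for the LiK group the ratio was 2.76. That value has no counting interval and is not a lower limit. In a fit without the filter on low counts, which brings Klf5 into the test, the edgeR adjusted p was 0.0212 on the normal diet and 0.0643 on ACR.

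Among the SOX factors, Sox9 had 18.4, 20.1 and 29.3 CPM in LiKM mice on the normal diet against 3.52, 5.32 and 4.27 CPM in LiK mice. It rose 5.12-fold (log2 2.36, SE 0.30, edgeR adjusted p = 0.000613). Its counts were not whole in 8 of 12 libraries, so its value is uncertain where reads map to more than 1 feature. Sox4 had 9.66, 9.51 and 7.87 CPM in LiKM mice against 0.423, 0.849 and 0.921 CPM in LiK mice, and rose 12.2-fold (log2 3.61, SE 0.46, edgeR adjusted p = 0.000607). Of the 5 genes that rose Sox9 did so by the smallest factor. Sox4 shares 2616 exon bases with the antisense transcript Gm26735, which is not listed in the table, and without a stated strand setting reads of these transcripts cannot be told apart.

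Neither Onecut gene passed the test on the normal diet. Onecut1 had 17.9, 41.7 and 9.94 CPM in LiKM mice and 45.1, 24.9 and 53.5 CPM in LiK mice, so the groups overlapped (log2 -0.82, SE 0.86, edgeR adjusted p = 0.535). Onecut2 had 101, 99.8 and 67.1 CPM in LiKM mice and 75.9, 113 and 81.7 CPM in LiK mice. Its groups overlapped too, and its log2 difference was -0.02 with an SE of 0.20 (edgeR adjusted p = 0.963), a difference whose sign turned under several settings.

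**Figure D2:**
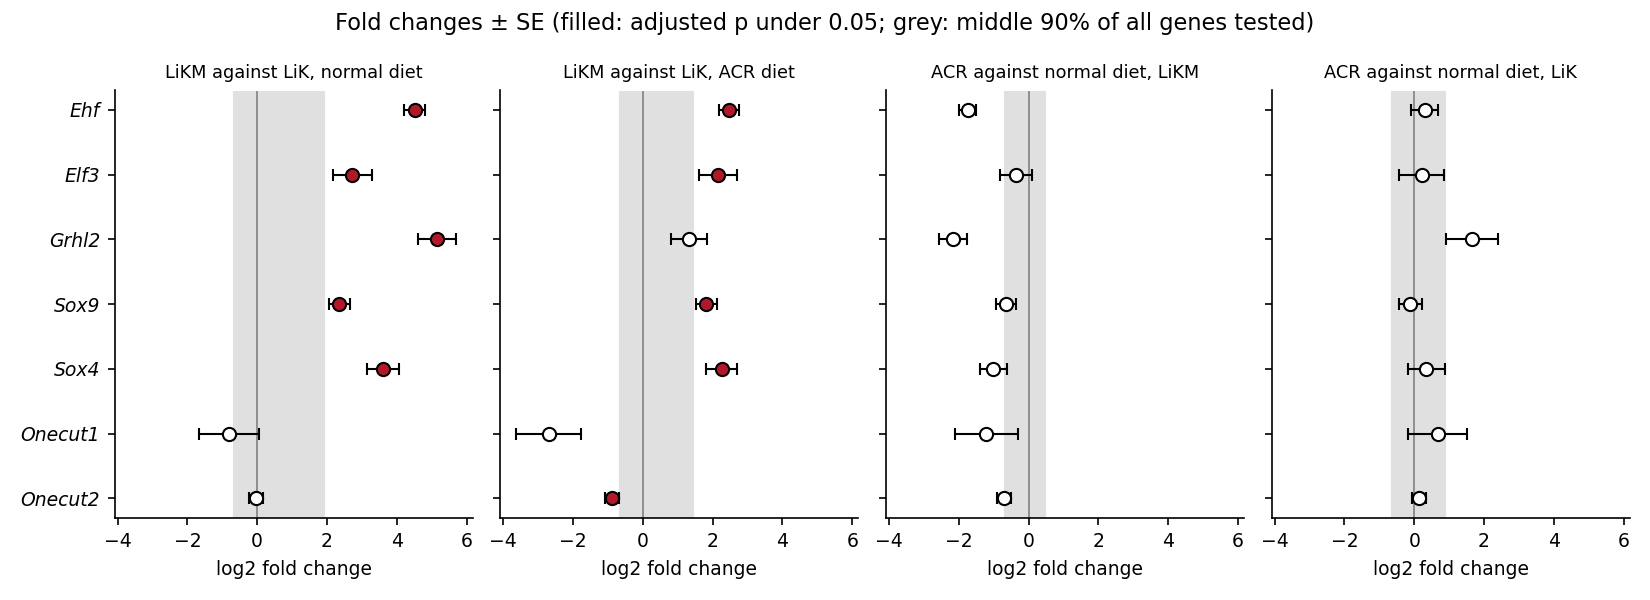
Log2 fold change (x axis) ± SE of the 7 genes tested (y axis) in the 4 comparisons. Filled points passed an adjusted p of 0.05 and the grey band holds the middle 90% of all 13880 genes. Ehf, Elf3, Sox9 and Sox4 are filled in both comparisons of LiKM with LiK mice, Grhl2 on the normal diet and Onecut2 on ACR, and no point is filled in the diet comparisons.

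On the ACR diet LiKM livers again had more of the epithelial and SOX factors, by smaller factors, and less Onecut2. Of the 7 genes 4 rose (Ehf, Elf3, Sox9 and Sox4) and 1 fell, against 5.55% of all genes that rose and 4.24% that fell. The count of 5 was 3 without LiKM ACR 2 and 2 without LiK ACR 2. Of the 7 genes 5 had all LiKM libraries above all LiK libraries, as 17.2% of all genes did, and 1 had all below, as 16.0% of all genes did. The members' median was 1.82 and that of all genes 0.02 on the log2 scale.

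Ehf had 2.92, 3.93 and 4.03 CPM in LiKM mice on ACR against 1.01, 0.599 and 0.343 CPM in LiK mice on ACR. The groups did not overlap, and Ehf was higher in LiKM mice by a factor of 5.55 (log2 2.47, SE 0.30, edgeR adjusted p = 0.00253). Sox9 had 8.33, 17.5 and 17.4 CPM in LiKM mice against 5.05, 3.33 and 3.84 CPM in LiK mice, with LiKM ACR 1 well below the other LiKM mice. Sox9 rose 3.54-fold (log2 1.82, SE 0.30, edgeR adjusted p = 0.00732), a call that was lost without LiKM normal 3, LiKM ACR 2 and LiKM ACR 3 together (log2 1.02, edgeR adjusted p = 0.0637), which leaves LiKM ACR 1 alone in its group.

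Elf3 had 2.92, 2.24 and 2.38 CPM in LiKM mice on ACR and 1.30, 0.266 and 0.137 CPM in LiK mice on ACR, and Sox4 had 3.05, 5.15 and 5.25 CPM against 1.87, 0.40 and 0.549 CPM. In each of them LiK ACR 1, the LiK library with the most duct marker RNA, was the highest LiK library and stood nearer to the LiKM mice than the other LiK libraries did. The part of that library's duct marker level in these values was not tested. Elf3 was 4.45-fold higher in LiKM mice (log2 2.15, SE 0.54, edgeR adjusted p = 0.0296) and Sox4 4.78-fold higher (log2 2.26, SE 0.45, edgeR adjusted p = 0.0129). Without LiK ACR 1 the log2 values were 3.58 for Elf3 and 3.22 for Sox4. The call of Elf3 ended without LiK ACR 2 (edgeR adjusted p = 0.121), LiK ACR 3 (0.0732), LiKM ACR 1 (0.0644) or LiKM ACR 2 (0.0561), and that of Sox4 without LiK ACR 2 (0.0577).

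Grhl2 had 0.56, 0.61 and 0.61 CPM in LiKM mice on ACR and 0.288, 0.333 and 0.0686 CPM in LiK mice on ACR. All LiKM mice were above all LiK mice, but the difference did not pass the test (log2 1.33, SE 0.52, edgeR adjusted p = 0.117), with 28 reads in LiKM mice and 10 reads in LiK mice. The ratio of those counts was 2.58 with a 95% counting interval of 1.21 to 5.95.

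Onecut2 had 62.6, 57.1 and 44.5 CPM in LiKM mice on ACR against 96.0, 117 and 86.3 CPM in LiK mice on ACR. All LiKM mice were below all LiK mice, and Onecut2 was 1.82-fold lower in LiKM mice (log2 -0.87, SE 0.20, edgeR adjusted p = 0.0239). The call was lost without LiK ACR 1 (edgeR adjusted p = 0.0577), LiK ACR 2 (0.101), LiKM ACR 2 (0.0573) or LiKM ACR 3 (0.0666), with log2 values of -0.74 to -0.98 over all libraries left out in turn. Onecut1 had 17.7, 2.85 and 9.51 CPM in LiKM mice and 90.1, 98.0 and 7.89 CPM in LiK mice. The groups overlapped through LiK ACR 3, and the difference did not pass the test (log2 -2.70, SE 0.92, edgeR adjusted p = 0.0894). Without LiK ACR 3, which is also the library with acinar marker RNA, the log2 value was -3.24 (edgeR adjusted p = 0.0359).

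ACR was next set against the normal diet within LiKM mice. The libraries of LiKM mice on ACR were all below those of LiKM mice on the normal diet for 6 of the 7 genes, all but Onecut1, against 6.7% of all genes. None of the 7 passed the edgeR test, and neither did any of the 13880 genes (0.0%; 5 genes without LiKM ACR 1). Unadjusted edgeR p was under 0.05 for 5 of the 7 genes and for 1005 genes in all (7.24%), while DESeq2 called 78 genes and limma voom 12. The median log2 change of the 7 genes was -1.01, against -0.01 for all genes.

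Ehf averaged 3.63 ± 0.611 CPM in LiKM mice on ACR and 12.2 ± 0.785 CPM in LiKM mice on the normal diet (log2 -1.74, SE 0.24, edgeR adjusted p = 0.0609), and ranked number 2 of all genes by p. Same-numbered LiKM mice on the 2 diets deviated together, with correlations across genes of 0.37, 0.22 and 0.48. No label states what a number shares, so a block by number was chosen from these same data. With that block within LiKM the edgeR adjusted p of Ehf was 0.0274. DESeq2 (adjusted p = 2.65e-09) and limma voom (adjusted p = 0.01) also called it, as did edgeR without LiK ACR 1 (adjusted p = 0.0467) or without LiK ACR 3 (0.0483), and over all settings its adjusted p ran up to 0.635. Grhl2 averaged 0.593 ± 0.029 CPM in LiKM mice on ACR and 2.72 ± 0.545 CPM in LiKM mice on the normal diet (log2 -2.17, SE 0.40, edgeR adjusted p = 0.141, DESeq2 adjusted p = 0.00156).

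The other genes had smaller differences, none of which passed. Sox4 averaged 4.48 ± 1.24 CPM in LiKM mice on ACR and 9.01 ± 0.99 CPM in LiKM mice on the normal diet (log2 -1.01, edgeR adjusted p = 0.554). Sox9 averaged 14.4 ± 5.27 and 22.6 ± 5.85 CPM in LiKM mice on ACR and on the normal diet (log2 -0.65, edgeR adjusted p = 0.659). Onecut2 averaged 54.7 ± 9.31 CPM in LiKM mice on ACR and 89.2 ± 19.1 CPM in LiKM mice on the normal diet (log2 -0.71, edgeR adjusted p = 0.394). Elf3 was nearest to level, at 2.51 ± 0.362 CPM on ACR and 3.24 ± 0.186 CPM on the normal diet (log2 -0.37, SE 0.46, edgeR adjusted p = 0.954). Onecut1 averaged 10 ± 7.42 CPM on ACR and 23.2 ± 16.5 CPM on the normal diet, with overlapping mice (log2 -1.21, SE 0.90, edgeR adjusted p = 0.896). Klf5 had 9 reads in LiKM mice on ACR and 18 reads in LiKM mice on the normal diet.

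In LiK mice 0 of the 7 genes differed between ACR and the normal diet, where 27 genes (0.195%) did in all, and all 7 had overlapping libraries. The count over all genes depended strongly on the fit. It was 401 by DESeq2, 812 with only the 2 LiK groups fitted, 701 with the replicate block within LiKM, 0 without LiK ACR 1, LiK normal 2 or LiK normal 3, and 108 without LiKM normal 3, and the count of the 7 genes was 0 in each of these. Ehf averaged 0.651 ± 0.336 CPM in LiK mice on ACR and 0.521 ± 0.108 CPM in LiK mice on the normal diet (log2 0.30, SE 0.38, edgeR adjusted p = 0.761). Grhl2 had the lowest adjusted p, with 10 reads in LiK mice on ACR and 3 reads in LiK mice on the normal diet (log2 1.65, SE 0.75, edgeR adjusted p = 0.348).

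The difference of the 2 diet effects, LiKM minus LiK, passed for 0 of the 7 genes and for 1 gene (0.0072%) in all, a count that ran from 0 to 20 with a library left out, the highest without LiKM ACR 3, and that was 160 by DESeq2 and 260 with the replicate block within LiKM. Unadjusted edgeR p was under 0.05 for Ehf, Grhl2 and Onecut2, that is 3 of the 7 genes, against 11.5% of all genes. The values were -2.04 for Ehf (SE 0.45, edgeR adjusted p = 0.139), -3.82 for Grhl2 (SE 0.85, edgeR adjusted p = 0.14) and -0.85 for Onecut2 (SE 0.29, edgeR adjusted p = 0.311) on the log2 scale. DESeq2 called it for Ehf (adjusted p = 0.0113) and Grhl2 (adjusted p = 0.0376), and edgeR with the block within LiKM for Ehf (adjusted p = 0.0499).

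Per kilobase of exon, the levels of the 8 genes can be set beside each other. Neighbours in that order are called close here where their means differ by less than the sum of their SDs. In LiKM mice on the normal diet Onecut1 (5.64 ± 4.02 CPM per kb), Onecut2 (5.5 ± 1.18) and Sox9 (5.46 ± 1.42) were close. Ehf followed at 2.18 ± 0.141 CPM per kb with Sox4 close to it at 1.88 ± 0.206, then Elf3 at 1.46 ± 0.0838, and far below them Grhl2 at 0.315 ± 0.0633 and Klf5 at 0.0788 ± 0.0124. In LiK mice fed the normal diet the Onecut genes stood at the top and close together, with 10 ± 3.58 CPM per kb for Onecut1 and 5.56 ± 1.24 for Onecut2. Sox9 came next at 1.06 ± 0.218 CPM per kb. Elf3 (0.22 ± 0.088 CPM per kb), Sox4 (0.152 ± 0.0562) and Ehf (0.0934 ± 0.0194) followed, each close to the next, and Grhl2 (0.00711 ± 0.00663) and Klf5 (0.00363 ± 0.00628), also close, were at the level of a few reads. Ehf was the fourth of the 8 genes in LiKM mice on the normal diet and the sixth in LiK mice on the normal diet.

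**Figure D3:**
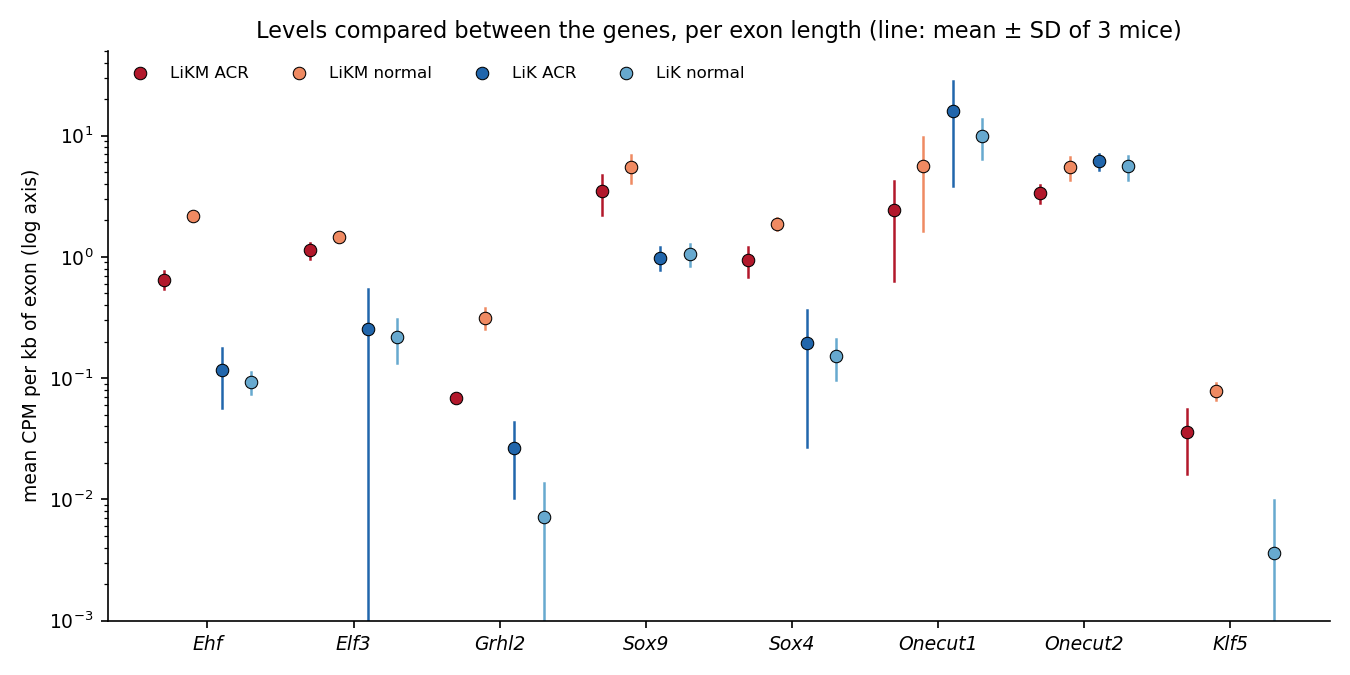
Group means of CPM per kilobase of exon (y axis, log scale) for the 8 genes (x axis) in the 4 groups, with lines for mean ± SD of 3 mice, stopped at the lower edge. Klf5 has no point for LiK mice on ACR, where it had 0 reads. Sox9, Onecut1 and Onecut2 stand close together in LiKM mice on the normal diet, and Sox9 is well below the Onecut genes in LiK mice.

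On ACR the order among LiKM mice was Sox9 (3.49 ± 1.28 CPM per kb), Onecut2 (3.37 ± 0.574), Onecut1 (2.43 ± 1.80), Elf3 (1.13 ± 0.163), Sox4 (0.935 ± 0.259), Ehf (0.65 ± 0.11), Grhl2 (0.0689 ± 0.00337) and Klf5 (0.0359 ± 0.0198). Neighbours were close from Sox9 down to Ehf, and not below it. In LiK mice on ACR it was Onecut1 (15.9 ± 12.1 CPM per kb), Onecut2 (6.14 ± 0.962), Sox9 (0.985 ± 0.213), Elf3 (0.256 ± 0.287), Sox4 (0.196 ± 0.169), Ehf (0.117 ± 0.0603), Grhl2 (0.0267 ± 0.0164) and Klf5 at 0, with the Onecut genes close and Elf3, Sox4 and Ehf close. Within each group the ratio of Onecut2 to Onecut1 per kb was highest where Onecut1, its denominator, was lowest. It was 0.898, 5.08 and 1.18 in LiKM mice on ACR, 1.42, 0.606 and 1.71 in LiKM mice on the normal diet, 0.27, 0.302 and 2.77 in LiK mice on ACR and 0.426, 1.15 and 0.387 in LiK mice on the normal diet.

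Ehf, Grhl2, Elf3, Sox4 and Sox9 had their highest levels where bile duct markers were highest, and the Onecut genes, for all their role in duct formation, did not. Krt19, a keratin of duct cells, had 2.67, 2.51 and 4.15 CPM in LiKM mice on ACR, 11.5, 8.88 and 11.1 CPM in LiKM mice on the normal diet, 1.15, 0.266 and 0.686 CPM in LiK mice on ACR and 0.352, 0.566 and 0.67 CPM in LiK mice on the normal diet. That is the order of groups seen for Ehf and Sox4. By the root mean square (RMS) difference of gene-centred log2 CPM over the 12 libraries, among 13082 genes, Krt19 had rank 5 for Sox4 (RMS 0.40) and 20 for Ehf (0.47), and the cell adhesion gene Epcam had rank 60 for Sox4 and 8 for Ehf (0.58 and 0.41). The likeness was looser for the other 3 genes, with Krt19 and Epcam at ranks 117 and 73 for Grhl2, 246 and 316 for Elf3 and 958 and 1900 for Sox9. For Onecut1 they had ranks 13020 and 13041. Krt19 and Epcam were chosen for this after their values were seen, and depth and the strain contrast are shared by all these genes.

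Of 18 bile duct markers 17 were tested. On the normal diet 14 rose in LiKM livers and 0 fell (median log2 4.25), against 13.2% and 8.61% of all genes. The 4 of smallest p were Krt19 (19.6-fold), Cftr, the chloride channel (86.8-fold), Cd24a (32.1-fold) and Prom1 (14.9-fold), with edgeR adjusted p values of 9.88e-05 for the first 3 and 0.0002 for Prom1. Cftr had 0.211, 0.0566 and 0 CPM in LiK mice on the normal diet, so its fold rests on few reads. Its log2 value ran from 6.0 to 7.69 with a library left out. The summed level of the 18 markers ran from 1380 to 1890 CPM in LiKM mice and from 511 to 589 CPM in LiK mice on the normal diet. Of these sums Spp1 alone held 507 to 927 CPM in LiKM mice and 28.6 to 46.4 CPM in LiK mice. On ACR 12 rose and 0 fell (median log2 2.17), against 5.55% and 4.24% of all genes. The count of 12 was 6 without LiK ACR 2. The summed levels on ACR were 977 to 1260 CPM in LiKM mice and 649 to 906 CPM in LiK mice. Spp1 held 302 to 476 CPM of them in LiKM mice and 29.7 to 172 CPM in LiK mice. Much of the difference between the sums therefore lay in that gene. Between the diets in LiKM mice 15 of the 17 had a log2 change below 0 (median -1.22) and 0 passed. The share of the transcription factor differences that goes with the number of duct cells was not tested.

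**Figure D4:**
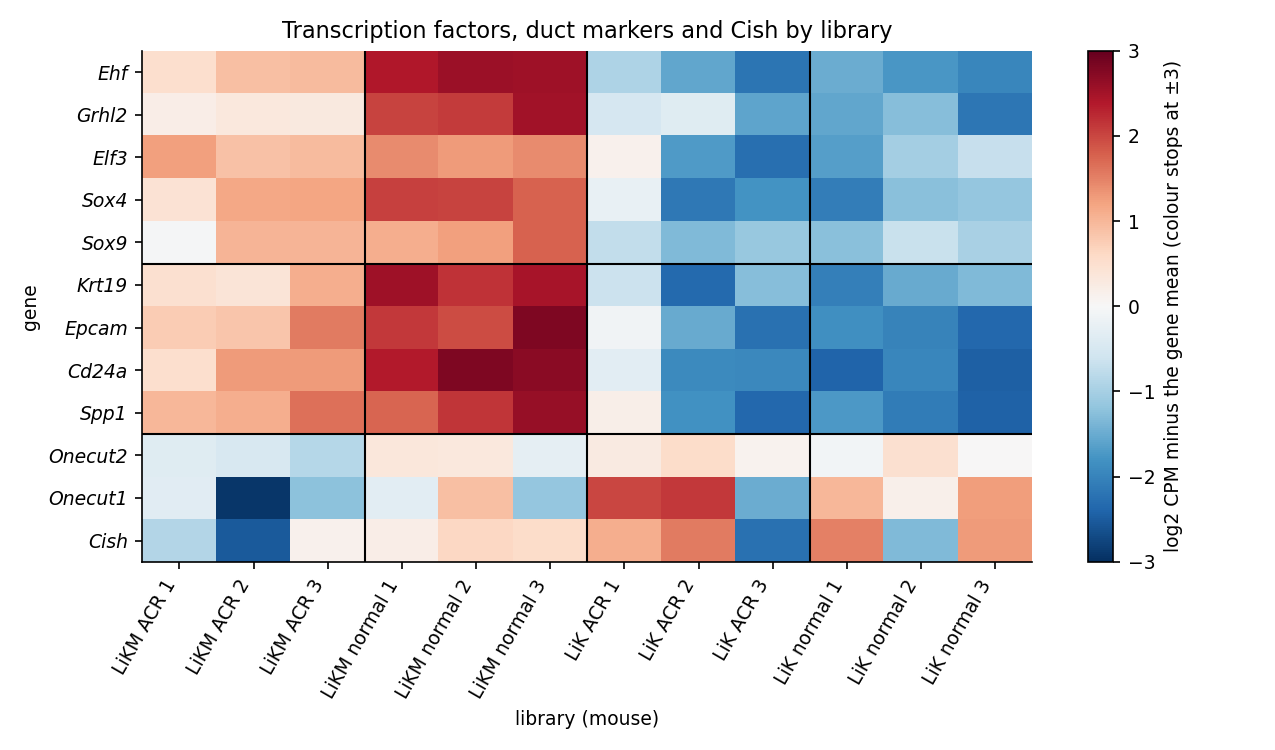
Log2 CPM minus the gene's mean over the 12 libraries (colour) for the 5 genes that rose in LiKM mice on the normal diet, 4 duct markers, the Onecut genes and Cish (rows) by library (columns). In the top 9 rows LiKM mice on the normal diet are highest on average, with LiK ACR 1 above the other LiK libraries for most of them, and the rows of Onecut1 and Cish differ from these.

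Most of a list of genes that GRHL2 is known to act on in other epithelia were higher in LiKM livers along with Grhl2. Of 8 such genes 6 rose and 0 fell on the normal diet (median log2 4.25), and the 4 of smallest p were the protease inhibitor Spint1 (log2 3.97), the protease St14 (log2 4.52), Epcam (log2 4.61) and the tight junction claudin Cldn4 (log2 5.02). On ACR, where Grhl2 itself did not pass, 5 rose and 0 fell (median log2 2.55), with Spint1 at 2.64, St14 at 3.18, the splicing factor Esrp1 at 4.13 and Cldn4 at 3.40. That count was 3 without LiK ACR 2. Epcam, Cldn4 and Cldn3 are in the list of duct markers too, so the lists are not independent. Of these Cldn3 did not pass on either diet (log2 0.51 on the normal diet and -0.22 on ACR). Nor did Cdh1 (log2 0.67 on the normal diet and 0.69 on ACR), and Rab25 did not pass on ACR (log2 2.47). Over all genes 13.2% rose on the normal diet and 5.55% on ACR.

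A list of 11 Notch and YAP pathway genes held regulators of Sox9 and other targets of these pathways. Against 13.2% of all genes that rose and 8.61% that fell on the normal diet, 3 of the 11 rose and 0 fell (median log2 1.10). They were Ankrd1, a YAP target (log2 5.79), the Notch ligand Jag1 (log2 1.45) and Ctgf, another YAP target (log2 1.96). YAP itself (Yap1, log2 -0.08), its relative Wwtr1 (0.42), the receptors Notch1 (0.60) and Notch2 (0.10) and the Notch effector Rbpj (0.18) did not pass. Nor did Hes1 (1.19), Hey1 (1.27) and Cyr61 (1.10), whose changes were larger. With a library left out the count of 3 ran from 2 to 4, and the log2 value of Ankrd1 from 5.25 to 7.39. On ACR 5.55% of all genes rose and 4.24% fell. Of the 11, 3 rose there and 0 fell (median log2 0.61), namely Ankrd1 (log2 3.51), Jag1 (log2 1.02) and the receptor Notch1 (log2 0.93). That count ran from 2 to 3 with a library left out.

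Of 14 other transcription factors of ducts and epithelia 11 were tested. On the normal diet, where 13.2% of all genes rose and 8.61% fell, 5 of them rose and 0 fell (median log2 0.82). Among the 5 were Foxj1, the factor of motile cilia (log2 5.29), Gata6 (log2 1.18) and Etv4 (log2 1.77). That count was 2 to 3 without any 1 of the LiKM or LiK libraries on the normal diet. On ACR 5.55% of all genes rose and 4.24% fell. Of the 11 factors Foxj1 (log2 3.30) and Gata6 (log2 0.69) rose there and 0 fell. Without LiKM ACR 2 or 3 or any 1 LiK library on ACR, 1 of these calls was lost.

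Close relatives of the 8 genes were called about as often as all genes on the normal diet. Of 21 relatives 14 were tested, and on the normal diet Klf6 (log2 1.90) and Elf4 (log2 1.5) rose and Klf10 (log2 -1.35) fell, that is 2 and 1 of 14, against 13.2% and 8.61% of all genes, with a median of 0.07. With library size alone as the scaling 6 rose and 0 fell. On ACR Grhl1 (log2 1.63) and Klf6 (log2 0.97) rose and Klf9 (log2 -1.0) and Elf2 (log2 -0.45) fell (median -0.38), of which 1 was left without LiKM ACR 1 or LiK ACR 1 and 0 without LiK ACR 2. Over all genes 5.55% rose and 4.24% fell on ACR. Onecut3 had 0 counts in all 12 libraries.

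None of 17 hepatocyte transcription factors tested passed as higher in either strain comparison. Of them Ppara (log2 -0.75), Creb3l3 (log2 -0.59) and Rxra (log2 -0.47), regulators of lipid metabolism, fell on the normal diet, with a median of -0.38. With library size alone as the scaling, which shifts the median of all genes by 0.40, 0 fell, so the direction of this list rests on the scaling. On ACR Ppara (log2 -0.99), Rxra (log2 -0.70), Creb3l3 (log2 -0.63) and Cebpa (log2 -1.05) fell (median -0.12), a count that was 2 without LiK ACR 2. Over all genes 8.61% fell on the normal diet and 4.24% on ACR.

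Markers of other cells the samples could hold were set beside these results. On the normal diet 5 of 8 lymphocyte markers rose, namely Cd8a (log2 3.42), Gzmb (3.05), Cd3e (2.70), Nkg7 (2.6) and Cd3d (2.06), and their sum was 5.46 to 15.2 CPM in LiKM mice against 2.6 to 2.77 CPM in LiK mice. That count was 2 without LiKM normal 2 or LiK normal 1 and 3 without LiKM normal 3 or LiK normal 3. Of 4 neutrophil markers the 3 tested, S100a8 (log2 2.97), S100a9 (2.34) and Csf3r (1.34), rose, with sums of 9.66 to 12.6 CPM in LiKM mice against 1.76 to 4.24 CPM in LiK mice. Of 8 stellate cell markers Des and Pdgfrb rose, of 7 endothelial markers Lyve1 and of 8 macrophage markers Ccr2. Of 10 hepatocyte markers Ass1 (log2 -0.92) and Ttr (-0.58) fell. Over all genes 13.2% rose and 8.61% fell on that diet. The stellate marker Acta2 had a log2 value of -1.73 and did not pass (edgeR adjusted p = 0.136). Library size alone as the scaling shifts the median of all genes by 0.40. The calls of Ttr and Ass1 did not hold under every alternative setting. The summed levels overlapped between the strains for stellate (105 to 256 CPM in LiKM mice, 107 to 163 CPM in LiK mice), endothelial (223 to 257 and 159 to 253 CPM) and macrophage markers (196 to 393 and 151 to 300 CPM). Leaving out LiKM normal 1, 2 or 3 or LiK normal 1 or 3 moved these 4 counts to between 0 and 4. The hepatocyte markers summed to 93800 to 111000 CPM in LiKM mice on the normal diet against 133000 to 178000 CPM in LiK mice on the normal diet.

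Among 6 gut epithelial markers, which bear on Klf5, Cdx1 and Cdx2 had 0 counts in all 12 libraries, whereas Cdh17 (log2 6.75) and Vil1 (log2 2.38) rose in LiKM mice on the normal diet, and 1 of these calls was lost without any 1 normal diet library but LiKM normal 2. Cdh17 had 0 counts in 3 libraries, and its log2 value ran from 6.22 to 8.61 with a library left out. The sum of the 6 markers was 114 to 141 CPM in LiKM mice and 107 to 119 CPM in LiK mice on the normal diet. On ACR Cdh17 (log2 5.95) rose, as did Cd8a (3.13) and Ccr2 (2.1) and the same 3 neutrophil markers. The summed levels on ACR were 11 to 23.5 CPM of lymphocyte markers in LiKM mice against 6.49 to 8.37 CPM in LiK mice, 14.2 to 21.5 CPM of neutrophil markers against 6.24 to 8.06 CPM, and 470 to 505 CPM of macrophage markers against 230 to 431 CPM. The neutrophil count was 0 without any 1 LiK library on ACR and 1 without LiKM ACR 1 or LiKM ACR 2. Cd8a and Ccr2 were not called without LiK ACR 2, nor Ccr2 without LiKM ACR 1, LiKM ACR 2, LiK ACR 1 or LiK ACR 3. The lymphocyte count was 2 to 3 without LiKM ACR 1, LiKM normal 1 or LiKM normal 3, the macrophage count 2 without LiK normal 1 and the gut count 2 without LiKM ACR 2. The part of all these cells in the levels of the 8 genes was not tested.

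The 3 nearest genes to each tested gene were taken by the same RMS difference. Those to Ehf included Fermt1 (0.21) and Fam163a (0.37). To Grhl2 they were Dpysl4 (0.41), Fermt1 (0.42) and Mex3a (0.44). Fermt1, a kindlin that links integrins to the cytoskeleton in epithelia, had 1.18, 1.15 and 1.22 CPM in LiKM mice on ACR, 4.20, 3.73 and 3.66 CPM in LiKM mice on the normal diet, 0.361, 0.20 and 0.0686 CPM in LiK mice on ACR and 0.141, 0.113 and 0.0837 CPM in LiK mice on the normal diet. Its groups stood in the order of those of Ehf.

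To Sox4 the nearest were Bicc1 (0.34), an RNA-binding protein known from kidney and duct epithelia, Myo5c (0.36) and Ctnnd2 (0.38). To Elf3 they were Myo7b (0.40), Cfap44 (0.42) and Thsd4 (0.43). To Sox9 they were Arhgef25 (0.25), Pdgfb (0.25) and Mycbpap (0.27). The genes nearest to these 5 all rose in LiKM livers on the normal diet (log2 2.01 to 6.26), a direction that follows from how they were chosen. The genes nearest to Onecut2, Cml2 (0.22), Cadps2 (0.23) and Rlf (0.24), had log2 values of -0.45, -0.24 and -0.12 on the normal diet, and on ACR Cadps2 (-0.65) and Rlf (-0.64) fell as Onecut2 did.

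Onecut1 had no gene nearer than Xirp1 (0.72), followed by Zyg11a (0.83) and Ikzf4 (0.84). Its levels differed within each group by factors of 6.20 in LiKM mice on ACR, 4.19 in LiKM mice on the normal diet, 12.4 in LiK mice on ACR and 2.15 in LiK mice on the normal diet, whereas Onecut2 differed within groups by 1.35 to 1.5. At rank 6 stood Cish (RMS 0.90), which growth hormone induces through STAT5 in liver and which was chosen after its values were seen. Cish had 12.1, 3.73 and 24.2 CPM in LiKM mice on ACR, 25.5, 34.1 and 32.8 CPM in LiKM mice on the normal diet, 47.6, 66.0 and 4.60 CPM in LiK mice on ACR and 63.8, 8.83 and 54.1 CPM in LiK mice on the normal diet. LiKM ACR 2, LiK ACR 3 and LiK normal 2 were the lowest of their groups in both genes. Among LiKM mice on the normal diet mouse 3 was the lowest in Onecut1 and mouse 1 in Cish, and among LiKM mice on ACR mouse 1 was the highest in Onecut1 and mouse 3 in Cish. Growth hormone is known to raise Onecut1 in the rat liver. The part of growth hormone in this spread was not tested.

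**Figure D5:**
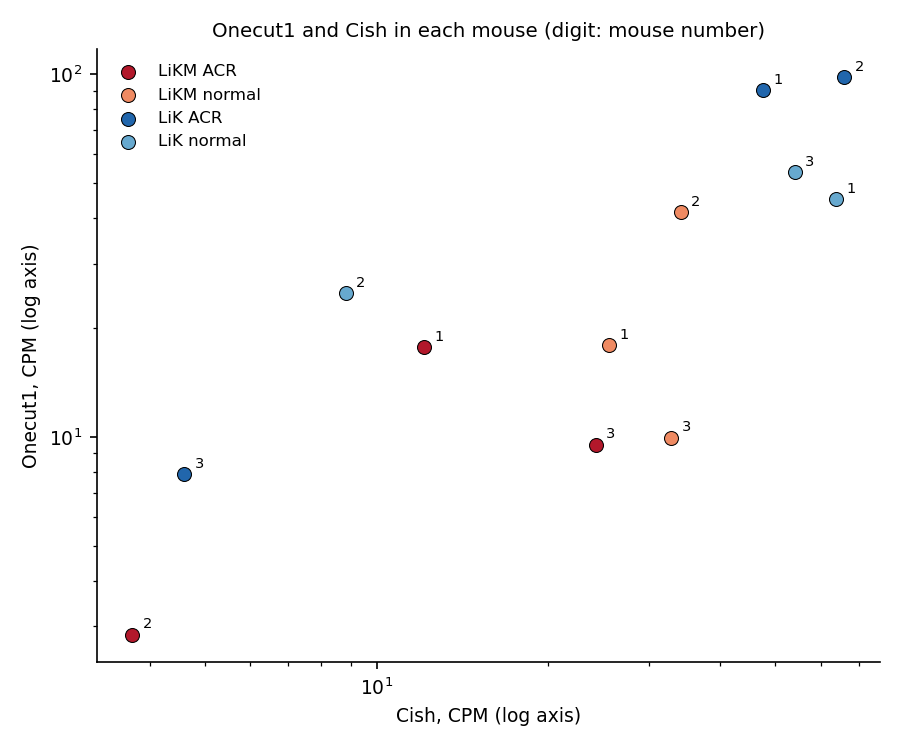
Onecut1 (y axis, CPM, log scale) against Cish (x axis, CPM, log scale) in the 12 mice, coloured by group, with the mouse number beside each point. LiKM ACR 2 and LiK ACR 3 are low in both genes and LiK ACR 1 and 2 high in both.

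The genes lie on separate chromosomes of mm10. Ehf is at chr2:103263433-103303278 on the minus strand with 5576 exon bases, Elf3 at chr1:135253575-135258568 on the minus strand with 2217, and Grhl2 at chr15:37233036-37363569 on the plus strand with 8613. Klf5 is at chr14:99298691-99315036 on the plus strand with 5201 exon bases, Sox9 at chr11:112782224-112787760 on the plus strand with 4135, and Sox4, a gene of 1 exon, at chr13:28948919-28953713 on the minus strand with 4795. Onecut1 is at chr9:74861921-74891781 on the plus strand with 4113 exon bases, of which 2171 are shared with the same-strand transcript Gm20649, and Onecut2 is at chr18:64340020-64400987 on the plus strand with 16234. All are protein coding, and reads from shared exon bases cannot be assigned with certainty.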

How the data were processed

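The deposited table holds expected counts, values per gene and library made by the authors that need not be whole (18.9% of those above 0 are not, tolerance 1e-09). Per the submitters' processing notes, featureCounts 2.0.0 and the build mm10 were used. Aligner, annotation and strand use were not given in the sources used here. All 12 value columns matched a sample, and 0 were left unmatched. Libraries of a group all differed by more than sampling noise (chi-square over its degrees of freedom 15.7 to 65.1). Expected counts were rounded, filtered with filterByExpr by group (13880 of 24421 genes kept) and scaled by TMM. edgeR 4.0.16 (R 4.3.3) fitted 1 coefficient per group over 12 libraries with its robust quasi-likelihood test, for 5 comparisons, with p-values adjusted by Benjamini-Hochberg over all genes tested. Log2 CPM values carry a prior count of 2. DESeq2 1.42.0 and limma 3.58.1 (voom) were alternatives, beside other scalings, filters, blocks and left-out libraries. The code was tested on simulated data. Positions and exon lengths come from GENCODE vM21.

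The 8 genes, the lists and the tests were chosen with earlier results of these data known. Named are the 8 genes, the 3 nearest genes to each, and from each list the genes past the threshold or the 4 of smallest p; the nearest genes leave out predicted genes. Some items under this rule are not reported here. Replicate numbers come from the titles, and what a number shares is stated in no label. Correlations of the deviations from group means between same-numbered mice were 0.37, 0.22 and 0.48 between the diets in LiKM, all over 0.1, which was taken as pairing there, and -0.10 to 0.08 elsewhere.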

Additional observations from a re-analysis of the deposited data

How the results depend on the processing

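The count of the 7 genes called was 5 for the strain contrast on the normal diet and remained 5 whichever library was left out, while on ACR it was 2 to 5 with a library left out. On ACR it was also 2 without the 3 MP mice and 1 without LiKM normal 3, LiKM ACR 2 and LiKM ACR 3, set apart by clock genes in an earlier analysis, which leaves LiKM mice on ACR with 1 library assumed to vary like the others. Ehf was called in both strain comparisons under every setting and left-out library (highest edgeR, DESeq2 or voom adjusted p 0.00875 on the normal diet and 0.0285 on ACR). ACR against the normal diet in LiKM mice gave 0 by edgeR, 2 by DESeq2, 1 by limma voom, 1 with the replicate block within LiKM and 0 to 1 with a library left out. The same diet contrast in LiK mice gave 0 throughout, and the difference of diet effects gave 2 by DESeq2, 1 with the replicate block within LiKM and 0 whichever library was left out. The block over all 12 libraries changed no call of the 7 genes. Of the values of single genes under alternatives, 783 kept direction and call, 19 lost the call, 11 gained it and 18 turned sign, and no called value did so.

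Signs turned for Onecut2 on the normal diet (log2 0.34 with library size alone, 0.03 with only the 2 groups compared, 0.16 with the block within LiKM, 0.22 without the MP mice, 0.13 without the 3 clock libraries, and -0.13 to 0.18 with a library left out), for Elf3 between diets in LiK mice (-0.28 by voom, -1.22 to 0.70 with a library left out) and for Sox9 there (0.20 with the identifier prefix as a covariate or without the MP mice, 0 with library size alone, -0.29 to 0.07 with a library left out). With a library left out they also turned in LiK mice for Ehf (-0.15 to 0.63) and Sox4 (-0.62 to 0.72), and for the difference of diet effects of Elf3 (-1.05 to 0.85). The cause was not tested.

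Over all genes, library size alone gave 4716 higher of 4831 called on the normal diet, against 1836 of 3031 with TMM, and 877 of 1126 on ACR, against 771 of 1359, and it moved the median of all genes by 0.40 and 0.14. The 5 genes stayed called. Without LiK normal 1 or 3 the normal diet count was 1658 or 1862, and 1038 without the MP mice, which leaves LiK mice on that diet with 1 library assumed to vary like the others. On ACR it was 743 without LiKM ACR 2, 565, 312 and 761 without LiK ACR 1, 2 and 3, 535 without the MP mice, 555 without those 3 LiKM libraries and 2150 by DESeq2. Between diets in LiK mice the count of 27 was 401 by DESeq2, 812 with only the 2 groups compared, 701 with the block within LiKM and 624 without those 3 libraries. The difference of diet effects, 1 gene, gave 160 by DESeq2, 260 with that block and 16 with library size alone, and the LiKM diet contrast, 0 genes, gave 78 by DESeq2, 12 by voom and 9 with that block. Of 36 named list genes on the normal diet 12 lost their call without some library, and of 27 on ACR 15 did. Few reads limit Grhl2 and Klf5, and 3 mice a group limit every diet result.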
